A study of Mus musculus with 3 samples.

Results

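The cells described here were those of the midgestation (E12.5) mouse ovary that carried the genes of the vessel lining. Members were chosen by measured values of 7 genes: a kept cell was gated when it had at least 1 unique molecular identifier (UMI, the tag of 1 captured RNA molecule) for at least 3 of 6 endothelial genes, Pecam1, Cdh5, Kdr, Egfl7, Esam, and Cldn5, and fewer than 5 UMIs of the germ cell gene Dazl. The gate held 550 of 28971 kept cells, and the other 28421 cells were the comparison. All came from 3 frozen lots of fetal ovarian somatic cells (FOSCs), lot 26, lot 29, and lot 30, each pooled from the ovaries of the embryos of 10 pregnant CD1 mice with the mesonephros removed. No transgene or treatment is named for any lot, so the lots were 3 samples of 1 condition, and they were not tested against each other. Before freezing, each cell suspension had been depleted on magnetic columns with antibodies to SSEA1 and to CD31, and CD31 is the protein of Pecam1. The gated cells are therefore the endothelial gene carriers that passed the columns, survived freezing and thawing, and entered a 10X 3′ library, and their share is not the share of vessels in the ovary.

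Endothelial cells line all vessels. At their junctions they carry VE-cadherin (Cdh5), PECAM1 (Pecam1), ESAM (Esam), and claudin 5 (Cldn5), and they respond to vascular endothelial growth factor through the receptor Kdr. Their identity is set by transcription factors of the ETS, SOX, and GATA families, and arteries, veins, lymphatics, and sprouting tip cells each add genes of their own. In the fetal mouse gonad a vascular network forms alongside the sex-specific somatic lineages, and the ovary at this age also holds pre-granulosa cells, stromal cells, the surface epithelium, germ cells, and resident leukocytes.

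The 3 count tables held 9763, 8567, and 10773 barcodes and 126680758, 87494974, and 141920060 UMIs in lots 26, 29, and 30, the order used throughout. With 200 to 9000 genes and at most 10% of UMIs from mitochondrial genes, 9711, 8553, and 10707 barcodes were kept. Between lots, 19 to 30 kept barcodes were shared, and 5 gated cells had a barcode that also occurred in another lot. In lot 26 the gate took 268 cells (2.76%, exact Clopper-Pearson 95% interval 2.44 to 3.11), in lot 29 it took 112 (1.31%, 1.08 to 1.57), and in lot 30 170 (1.59%, 1.36 to 1.84), a mean of 1.89% ± 0.770 (SD, n = 3 lots). Lot 26 thus gave the highest share, and its interval, which covers counting error only, did not meet those of the other lots. The gated cells were deeper than the others, with a median of 16606.5 against 10531 UMIs per cell. Scrublet, a doublet caller, marked 96 of the 550 gated cells (17.5%) and 1521 of the other cells (5.35%), all of which were kept in.

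The 6 gate genes and Dazl chose the cells, so their values are a description and were not tested. Pecam1 stood at 301, 118, and 125 CPM (UMIs in the summed gated cells, scaled to a sum of 1000000) and at 9.83, 6.06, and 5.16 CPM in the other cells. Cdh5 stood at 322, 206, and 177 against 1.61, 0.749, and 0.783 CPM. For Kdr and Egfl7 the other cells were less empty, with Kdr at 25.6, 22.5, and 27.3 CPM against 374, 277, and 242 in gated cells, and Egfl7 at 22.1, 23.4, and 23.2 against 451, 496, and 312. An Egfl7 UMI was found in 22.4% of the other cells, and Kdr was nearly as frequent, compared with 1.22% for Cdh5, 1.73% for Esam, and 1.28% for Cldn5. Pecam1 was found in 67.6% of the gated cells, in 4.78% of the others, and in 51.9% of cells with 5 or more Dazl UMIs, the germ cells, which are known to carry this gene. The limit on Dazl kept out 75 cells that met the marker count, 62 of them with exactly 3 markers, and 508 of the 550 gated cells had no Dazl UMI at all.

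Cells just inside the gate differed from those further in. To check the label, 18 endothelial genes that the gate does not use were counted in each cell (Tie1, Tek, Flt1, Emcn, Cd93, Clec14a, Ramp2, Plvap, Eng, Icam2, Ecscr, Robo4, Mmrn2, Rasip1, S1pr1, Cd34, Ptprb, and Tspan18, called held-out markers here). The median number found was 1 in cells with 0, 1, or 2 gate genes and also 1 in the 198 cells with exactly 3, but 8.5 in the 28 cells with 4, 13 in the 57 with 5, and 16 in the 267 with 6. At least 5 held-out markers were found in 0.564% of the 1951 cells with 2 gate genes, in 5.56% of those with 3, and in 67.9%, 98.2%, and 100% of those with 4, 5, and 6. After every cell was thinned to 4000 UMIs, the last 5 shares were 0.0514%, 1.02%, 46.4%, 89.3%, and 98.5%. Median depth also climbed toward the gate, from 9417 UMIs in cells with 0 gate genes through 11362 with 1 and 14973 with 2 to 19414.5 with 3, and was 15083.5 in the 352 cells with 4 to 6. Of the 198 cells with exactly 3 gate genes, 85 (42.9%) had the set Kdr, Egfl7, and Esam, and 46 (23.2%) had Pecam1, Kdr, and Egfl7, so most rested on the pair that was also frequent outside the gate. In lot 29, 7 of the 31 such cells (22.6%) had 5 or more held-out markers. Of the 10 cells of lot 26 with exactly 4 gate genes, 4 had 5 or more held-out markers, and Scrublet marked 5 as doublets. Hence the endothelial label was borne out by independent genes for most of the cells with 4 to 6 gate genes (184, 81, and 87 per lot, 1.22% ± 0.590 of kept cells), and not for most cells with exactly 3 (84, 31, and 83 per lot). Results are given for all 550, and the value in the 352 is given beside them for some genes only. Levels could differ widely between them. Aplnr stood at 234, 111, and 154 CPM in the 352 and at 154, 82.5, and 64.8 in all 550. Pdpn stood at 10.8, 4.75, and 13.7 CPM in the 352 and at 26.3, 13.4, and 33.1 in all 550. The levels in all 550 are thus not those of the borne-out cells alone.

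**Figure D1:**
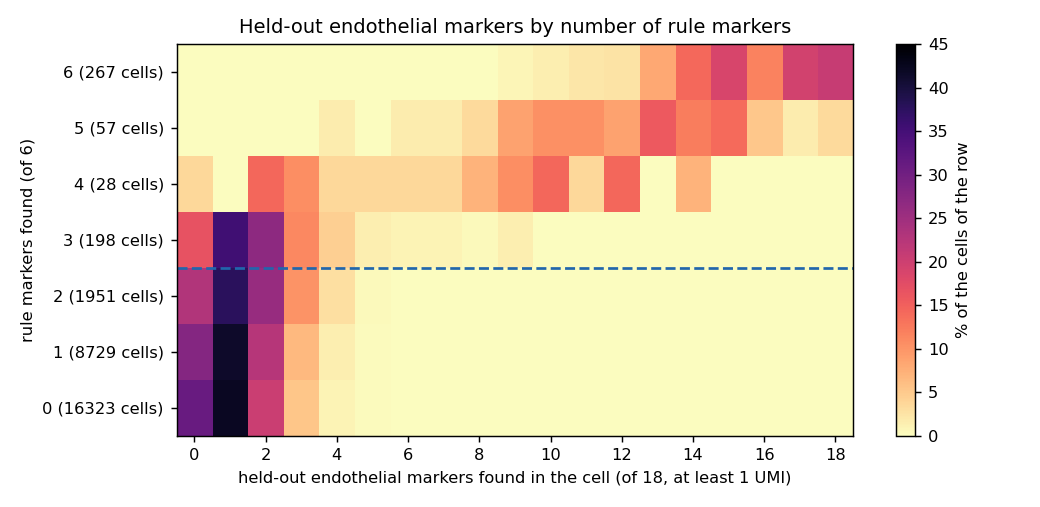
Number of held-out endothelial markers found per cell (horizontal axis, 0 to 18) by the number of gate genes found (vertical axis, 0 to 6), with the colour giving the percent of the cells of each line and a dashed line at the gate. The median is 1 for 0 to 3 gate genes and 8.5, 13, and 16 for 4, 5, and 6.

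Gated cells were compared with all other kept cells on 6 sums of UMIs, 1 for each side of each lot, with edgeR's quasi-likelihood test across 14923 genes, the gate genes and Dazl left out. Adjusted p-values throughout come from this test after Benjamini-Hochberg adjustment over all genes tested. At an adjusted p under 0.05, 1486 genes (9.96%) were higher and 1134 (7.6%) were lower in gated cells. With the lot as a block, the counts were 2137 higher and 1933 lower. Without lot 26 they were 602 and 225, without lot 29 917 and 565, and without lot 30 1188 and 682. In the 352 cells with 4 to 6 gate genes, 2355 of 14837 genes (15.9%) were higher and 2699 (18.2%) were lower than in the other cells. In the 198 cells with exactly 3, 105 of 14700 genes (0.714%) were higher and 100 (0.68%) were lower, against 2176 at an unadjusted p under 0.05. Each count of list members called below is to be read beside these shares. In a sum over cells, more cells with a gene and more of it per cell cannot be told apart.

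All 18 held-out markers were higher in gated cells, with a median log2 fold change of 6.04 compared with -0.03 over all genes tested. Icam2, an adhesion molecule of the vessel lining (chromosome 11, 106377656 to 106388075 in GRCm38), stood at 207, 206, and 119 CPM in gated cells and 0.861, 0.421, and 0.428 CPM in the others (log2 fold change 8.37, SE 0.40, adjusted p = 6.58e-06). Flt1, a VEGF receptor that also traps the ligand (chromosome 5, 147561604 to 147726011), stood at 194, 101, and 100.4 and 0.935, 0.269, and 0.406 CPM (log2 fold change 8.01, SE 0.52, adjusted p = 0.000139). Tie1 and Tek encode the receptors of the Tie pathway. Tie1 (chromosome 4, 118471191 to 118490061) stood at 115, 53.2, and 59.6 against 0.679, 0.152, and 0.297 CPM (log2 fold change 7.72, SE 0.54, adjusted p = 0.000214), and Tek (chromosome 4, 94739289 to 94874976) at 51.4, 47.2, and 35.7 against 0.315, 0.246, and 0.37 CPM (log2 fold change 7.23, SE 0.24, adjusted p = 3.9e-07). For each of these 4 genes every gated sum lay far above every other sum. Lot 26 was the highest of the 3 for Flt1 and Tie1, whereas for Icam2 lots 26 and 29 lay together above lot 30. The lots differed in make-up, with exactly 3 gate genes in 84 of 268, 31 of 112, and 83 of 170 gated cells. In cells with 4 to 6 gate genes, Icam2 was not lower in lot 30 than in lot 29. These 4 genes were measured in the same cells that the gate genes chose.

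The remaining held-out markers spanned a wide range. The sialomucins Emcn and Cd34 differed by 6.01 and 7.55 on the log2 scale, the lectin-like receptor genes Cd93 and Clec14a by 7.95 and 5.94, and the guidance receptor gene Robo4 by 6.07. Plvap, the diaphragm protein of fenestrae and caveolae, stood at 267, 118, and 95.6 against 2.02, 1.25, and 1.43 CPM (log2 fold change 6.77). At the low end, the sphingosine 1-phosphate receptor gene S1pr1 stood at 73.2, 52.2, and 70.2 CPM in gated cells and at 33.2, 41.7, and 42.7 in the others (log2 fold change 0.82, SE 0.15, adjusted p = 0.00451). The gated sums were all above the other sums, but the gap was small, and without lot 26 the adjusted p was 0.077. Ramp2 and Tspan18 were likewise far from absent outside the gate, at 49.4, 65.2, and 46.6 and 24.6, 16.8, and 21.5 CPM, and Ramp2 shares 1103 exonic bases on the same strand with Vps25, which limits how its UMIs can be assigned. Rasip1 and Eng also share exonic bases with a neighbouring gene. In the 352 cells with 4 to 6 gate genes the median of the 18 was 6.77, and all 18 were higher. In the cells with exactly 3 gate genes, 0 of the 18 passed edgeR's quasi-likelihood test, 2 had an unadjusted p under 0.05, and their median was 0.87.

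**Figure D2:**
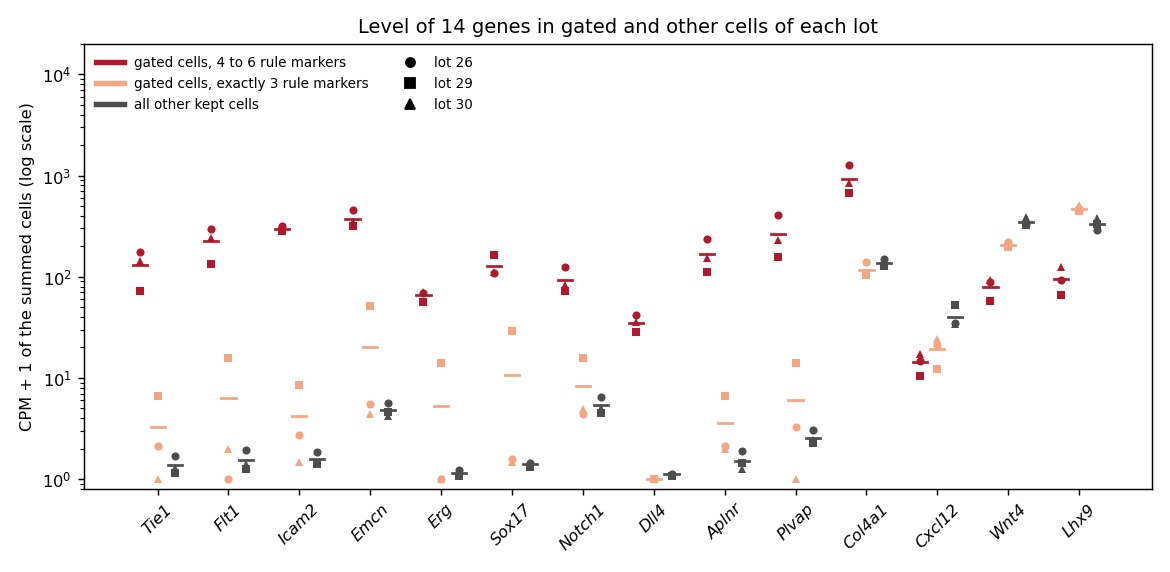
Level of 14 genes in CPM plus 1 on a log axis, for cells with 4 to 6 gate genes, cells with exactly 3, and all other kept cells; symbols are the lots and bars the means of the 3 lots. For Icam2 the 3 sums with 4 to 6 gate genes lie at 314, 279, and 284 CPM, and the sums with exactly 3 at 1.71, 7.41, and 0.49 CPM, near the other cells.

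Promoters of the held-out markers are shown because ETS factors are known regulators of endothelial genes. The 250 bases before the start were read from RefSeq's GRCm38.p6 table, which had an entry for 9 of the 18, and the capitals mark AGGAAG, a core that ETS factors bind, or its reverse complement CTTCCT.
Flt1 (chr5:147726012-147726261, minus strand): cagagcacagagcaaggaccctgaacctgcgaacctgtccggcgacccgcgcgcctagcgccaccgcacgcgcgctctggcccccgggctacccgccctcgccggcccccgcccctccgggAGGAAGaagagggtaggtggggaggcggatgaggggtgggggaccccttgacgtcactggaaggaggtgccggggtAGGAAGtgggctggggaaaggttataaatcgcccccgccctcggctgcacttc
Emcn (chr3:137340828-137341077, plus strand): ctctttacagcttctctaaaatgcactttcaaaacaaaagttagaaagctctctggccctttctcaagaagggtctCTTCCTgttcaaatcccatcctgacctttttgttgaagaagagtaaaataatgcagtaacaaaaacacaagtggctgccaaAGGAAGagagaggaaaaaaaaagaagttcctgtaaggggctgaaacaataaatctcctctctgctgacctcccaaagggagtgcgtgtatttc
Eng (chr2:32646345-32646594, plus strand): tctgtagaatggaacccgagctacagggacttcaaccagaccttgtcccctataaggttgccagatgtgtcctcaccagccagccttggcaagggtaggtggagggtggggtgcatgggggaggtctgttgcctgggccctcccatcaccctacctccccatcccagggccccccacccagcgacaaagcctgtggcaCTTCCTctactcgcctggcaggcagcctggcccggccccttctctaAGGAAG
Tek (chr4:94739039-94739288, plus strand): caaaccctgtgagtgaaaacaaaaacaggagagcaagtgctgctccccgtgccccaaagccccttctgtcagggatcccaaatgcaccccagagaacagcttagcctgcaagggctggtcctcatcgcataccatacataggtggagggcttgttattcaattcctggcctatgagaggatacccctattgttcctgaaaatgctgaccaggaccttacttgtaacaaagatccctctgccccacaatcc
The matches began 129 and 53 bases before the start in Flt1, 174 and 93 in Emcn, and 52 and 6 in Eng, and the Tek window held none. Of the 9 held-out markers with an entry 7 had a match on either strand, as did 3 of 11 endothelial transcription factors. The same letters occurred in 371 of 1111 promoters of genes higher in gated cells (33.4%), in 253 of 846 of genes lower (29.9%), in 3102 of 11129 of all genes tested (27.9%), and in 29.2% of all 27025 promoters in the table. A GATA core, AGATAA, was in 6.57% of promoters of genes higher and 6.02% of all tested, and a SOX core, AACAAT, in 5.94% and 5.24%. For genes higher in cells with 4 to 6 gate genes, both lay below all tested, at 5.58% against 6.02% and 5.08% against 5.24%. There AGGAAG was in 32.5% of genes higher, 27.0% of genes lower, and 27.9% of all tested. In 31 promoters an AGGAAG match overlapped a match of another motif. These are counts of letters, not of bound sites.

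Most endothelial transcription factors were higher in gated cells, 16 of 20 against the 9.96% of all genes, with a median log2 fold change of 4.77. The ETS factor Erg stood at 45.1, 43.7, and 29.4 CPM against 0.24, 0.0819, and 0.138 (log2 fold change 8.04, SE 0.33, adjusted p = 4.72e-07), and its relative Fli1 at 82.6, 83.0, and 56.2 against 2.48, 2.06, and 1.89 CPM (log2 fold change 5.19, SE 0.21, adjusted p = 4.39e-07). Ets1, Ets2, and Elk3, ETS genes that many tissues use, were higher by 1.87, 3.08, and 2.02 on the log2 scale, from levels of 65.9, 57.2, and 67.2 CPM (Ets1) in the other cells. The SOXF genes, which encode 3 related factors of vessel growth and arterial fate, were nearly absent from the other cells. Sox7 stood at 47.5, 35.3, and 28.8 against 0.248, 0.105, and 0.196 CPM, Sox17 at 71.0, 127, and 45.9 against 0.439, 0.328, and 0.435 CPM, and Sox18 at 78.3, 87.0, and 38.2 against 0.579, 0.819, and 0.312 CPM, with log2 fold changes of 7.71 (adjusted p = 4.39e-07), 7.72 (0.000103), and 7.02 (0.000187). No gated sum overlapped another sum for these genes, and lot 29 was the highest for Sox17 and Sox18.

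Blood and endothelial precursors share Tal1, Lyl1, and Lmo2, members of 1 transcription complex. Lmo2 stood at 163, 171, and 76.2 CPM against 1.75, 0.936, and 0.863 (log2 fold change 6.95, SE 0.48, adjusted p = 0.000157), and Tal1 at 11.2, 34.3, and 13.98 against 0.298, 0.538, and 0.225 CPM (log2 fold change 5.86, SE 0.57, adjusted p = 0.00025). Their usual partner Gata2 did not pass the test. It stood at 14.1, 3.97, and 9.70 CPM in gated and 17.9, 11.3, and 9.30 CPM in other cells, so the sums overlapped (log2 fold change -0.27, SE 0.34, adjusted p = 0.638). The homeobox gene Hhex, the repressor gene Bcl6b, Mef2c, and Nfatc1, which works in heart valve endothelium, were higher by 4.80, 7.004, 2.82, and 2.56. Foxc2 was higher by 1.45 (adjusted p = 0.038), and without lot 26, 29, or 30 its adjusted p was 0.116, 0.066, and 0.0654. The flow-responsive genes Klf2 and Klf4 did not pass, with Klf2 at 201, 235, and 346 against 83.7, 139, and 312 CPM and Klf4 at 102, 78.5, and 275 against 131, 159, and 366 CPM. Klf2 was higher without lot 30 (1.10, adjusted p = 0.0236), and Klf4 lower with the lot as a block (-0.49, adjusted p = 0.00314). Etv2 is described with the lots below.

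Among VEGF receptors and ligands, the receptors were higher and most ligands were not (5 higher and 2 lower of 9 tested). Flt4, the receptor for VEGF-C, stood at 47.5, 44.7, and 22.5 CPM against 0.588, 0.269, and 0.37 (log2 fold change 6.61, SE 0.38, adjusted p = 6.67e-06). The co-receptor gene Nrp1 stood at 213, 151, and 112 against 23.2, 21.2, and 19.95 CPM (log2 fold change 2.98, SE 0.22, adjusted p = 2.31e-05) and Nrp2 at 96.9, 99.9, and 57.6 against 9.49, 8.78, and 8.75 CPM (log2 fold change 3.32, SE 0.22, adjusted p = 9.77e-06). Every gated sum of these 3 receptors was above every other sum. The ligand gene Vegfc was also higher (2.03, adjusted p = 0.000257). Vegfa, the main ligand of Kdr, stood at 31.0, 15.9, and 41.6 CPM in gated cells and at 51.1, 47.0, and 69.5 CPM in the others, with no overlap between the sums (log2 fold change -0.81, SE 0.25, adjusted p = 0.0544). It was lower with the lot as a block (-0.83, adjusted p = 0.000143), without lot 30 (-0.86, adjusted p = 0.0306), and in cells with 4 to 6 gate genes (-1.57, adjusted p = 0.00243). Vegfb (-0.42, adjusted p = 0.0442) and Vegfd, listed as Figf (-1.45, 0.015), were lower. Neither kept its call without lot 26 or lot 30 (adjusted p = 0.26 and 0.0927 for Vegfb, 0.186 and 0.112 for Figf), and without lot 29 Vegfb had 0.131. Pgf did not pass (-0.87, adjusted p = 0.132).

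The same split was seen in the Tie pathway, where 3 of 6 genes were higher and all 3 were receptors or their partner. Besides Tie1 and Tek these included Ptprb, the phosphatase that acts on Tek, at 74.2, 29.3, and 31.4 against 1.09, 0.761, and 0.986 CPM (log2 fold change 5.68, SE 0.37, adjusted p = 2.84e-05). The 3 angiopoietin genes, the ligands of Tek, did not pass. Angpt1 stood at 0.196, 1.99, and 1.43 CPM in gated cells and 2.76, 3.74, and 2.57 in the others (-1.55, adjusted p = 0.0906, with the lot as a block 0.032), Angpt2 at 4.12, 1.49, and 2.57 and 2.77, 2.12, and 2.15, and Angpt4 at 0.196, 0.497, and 1.14 and 2.00, 1.40, and 1.91 CPM. In cells with 4 to 6 gate genes Angpt1 and Angpt4 were lower, Angpt1 with a log2 fold change of -2.13 (adjusted p = 0.0319) and Angpt4 at 0.299, 0, and 0.683 CPM (0.0265). These Angpt4 levels lie near the floor of the sums, so its call rests on very few UMIs.

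Of 13 Notch pathway genes, 6 were higher and 1 lower. Dll4, the Notch ligand of arterial and tip cells, stood at 26.5, 19.9, and 14.5 against 0.132, 0.0819, and 0.123 CPM (log2 fold change 7.54, SE 0.32, adjusted p = 5.07e-07). The receptor genes Notch1 and Notch4 stood at 82.4, 55.6, and 36.8 and 33.4, 15.9, and 16.5 CPM in gated cells, above 5.43, 3.52, and 4.07 and 2.24, 2.32, and 3.72 CPM in the others, with log2 fold changes of 3.85 (adjusted p = 6.88e-05) and 3.11 (0.000205). Notch2 was lower (-0.45, adjusted p = 0.0437), and Notch3, a receptor of mural cells, did not pass. The target gene Hey1 was higher by 0.79 (adjusted p = 0.0118), whereas Hey2, Heyl, and Hes1 did not pass. The ligand genes Jag2 and Dll1 were higher by 2.15 and 1.67 (adjusted p = 0.00422 and 0.014). Several of these calls hung on single lots, with adjusted p-values without the named lot of 0.207 for Hey1 (lot 26), 0.0515 for Jag2 (lot 29), 0.261, 0.0642, and 0.248 for Notch2, and 0.0767, 0.0927, and 0.072 for Dll1 (lots 26, 29, and 30). With the lot as a block Hes1 was lower (adjusted p = 0.0367), and Heyl was lower in cells with 4 to 6 gate genes (-1.45, adjusted p = 0.0456).

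Receptors also led the BMP and TGF-beta list, where 6 of 15 genes were higher and 9 did not pass. Acvrl1 (ALK1), the endothelial type I receptor, stood at 40.6, 23.4, and 17.97 against 4.52, 3.55, and 4.87 CPM (log2 fold change 2.78, SE 0.28, adjusted p = 0.000143), and Tgfbr2 at 70.0, 35.8, and 32.5 against 5.40, 4.36, and 4.85 CPM (log2 fold change 3.35, SE 0.27, adjusted p = 4.48e-05). Eng, the co-receptor of Acvrl1, stood at 191, 104, and 102 against 7.62, 4.13, and 5.93 CPM (4.59). The ligand gene Tgfb1 was higher (78.1, 123, and 49.9 against 8.57, 8.07, and 6.66 CPM, log2 fold change 3.51, SE 0.35, adjusted p = 0.000589), as were Smad1 (1.42) and, with an adjusted p of 0.0257, Bmpr2 (0.61; without lot 26 0.188 and without lot 29 0.0863). Their target genes Id1, Id2, and Id3, as well as Smad6 and Smad7, did not pass. Id1 stood at 224, 187, and 467 CPM in gated cells and 261, 339.8, and 613 in the others, and with the lot as a block Id1 (-0.39, adjusted p = 0.00923) and Id2 (-0.50, 0.0222) were lower.

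Apelin signalling acts on sprouting vessels and is sensed by a single receptor. The apelin receptor gene Aplnr stood at 154, 82.5, and 64.8 CPM in gated and 0.886, 0.433, and 0.254 CPM in other cells (log2 fold change 7.69, SE 0.58, adjusted p = 0.000431), and its ligand gene Apln at 12.4, 3.48, and 6.85 against 1.25, 1.03, and 1.11 CPM (log2 fold change 2.90, SE 0.36, adjusted p = 0.000524). The chemokine receptor gene Cxcr4 (2.37, adjusted p = 0.00173) and the scavenger receptor gene Ackr3 (1.35, 0.0249) were higher, and their shared ligand gene Cxcl12 was lower, at 15.9, 9.94, and 20.5 against 33.7, 51.7, and 32.9 CPM (-1.24, 0.01). Without lot 26 the adjusted p was 0.0514 for Cxcr4, 0.305 for Ackr3, and 0.0732 for Cxcl12, and without lot 30 it was 0.0839 for Ackr3. S1pr3 did not pass (adjusted p = 0.0511), but was lower with the lot as a block (-1.03, 0.0138). In all, 5 of the 8 genes of the apelin, sphingosine 1-phosphate, and CXCL12 list were higher and 1 lower.

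Ligands that endothelial cells send to their neighbours were higher for 6 of 12 genes. Pdgfb, which recruits pericytes, stood at 31.6, 24.3, and 19.1 against 0.695, 0.573, and 0.638 CPM (log2 fold change 5.39, SE 0.23, adjusted p = 5.96e-07). Esm1, an endothelial proteoglycan of sprouting vessels, stood at 18.1, 22.9, and 13.4 against 0.0662, 0.0234, and 0.0508 CPM (log2 fold change 8.54, SE 0.38, adjusted p = 7.38e-07). The vasoconstrictor gene Edn1 (2.39), the semaphorin gene Sema3g (2.65), Csf1, the growth factor of macrophages (1.33), and the growth factor gene Igf2 (0.84) were also higher. Igf2 stood at 611, 497, and 449.8 CPM in gated and 309.5, 323, and 293 CPM in other cells. Il33 was lower (-1.32, adjusted p = 0.0326). Without lot 26 the adjusted p was 0.0984 for Igf2 and 0.171 for Csf1, without lot 30 it was 0.0931 for Csf1 and 0.173 for Il33, and without lot 29 0.151 for Il33. Hbegf, at 46.9, 41.2, and 65.6 against 7.99, 9.36, and 33.1 CPM, did not pass (1.69, adjusted p = 0.163), but was higher without lot 30 (2.48, 9.89e-06). Pdgfa did not pass (-0.54, 0.066), but was lower with the lot as a block (-0.52, 0.0233), without lot 30 (0.0255), and in cells with 4 to 6 gate genes (-1.48, 3.06e-05).

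Both arterial and venous genes were found among the gated cells. Of 12 arterial genes 10 were higher, with a median log2 fold change of 2.67, and of 6 venous genes 5 were higher, with a median of 4.66. The arterial connexin genes Gja4 and Gja5 stood at 63.8, 32.8, and 41.6 and 7.26, 0.497, and 3.99 CPM, against 2.56, 2.34, and 2.81 and 0.132, 0.0819, and 0.225 CPM, with log2 fold changes of 4.27 (adjusted p = 1.85e-06) and 4.91 (0.000624). The arterial ephrin gene Efnb2 (1.86) and its venous receptor gene Ephb4 (1.05) were both higher, Ephb4 with an adjusted p of 0.053 without lot 29. Bmx, at 0.981, 0.497, and 0.571 CPM, was higher by 3.73 (adjusted p = 0.0108, without lot 26 0.22, without lot 29 0.0688). Jag1 and Hey2 did not pass. Nr2f2, the transcription factor of venous fate, stood at 154, 107, and 146 CPM in gated and 148, 142, and 148 CPM in other cells (log2 fold change -0.02, SE 0.12, adjusted p = 0.955), so the sums overlapped.

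Among the 352 cells with 4 to 6 gate genes, 83 of 184, 36 of 81, and 42 of 87 cells had at least 3 of 10 arterial genes (Gja4, Gja5, Dll4, Hey1, Hey2, Efnb2, Sox17, Unc5b, Bmx, and Jag1; 45.1%, 44.4%, and 48.3%). At least 3 of 5 venous genes (Nr2f2, Ephb4, Nrp2, Aplnr, and Flt4) were found in 135, 63, and 54 (73.4%, 77.8%, and 62.1%). Both held for 59, 28, and 28 cells, and neither for 25, 10, and 19. The lots thus ranged little in arterial share. Most cells with 3 arterial genes also had 3 venous ones, but so did most of all 352 cells. The overlap therefore does not set those cells apart. These counts were made without thinning, and whether the arterial and venous genes go together was not tested. In contrast, 5, 1, and 9 of the cells with exactly 3 gate genes had 3 arterial and 2, 1, and 3 had 3 venous genes. After thinning to 4000 UMIs, a Dll4 UMI was found in 17.5%, 8.75%, and 12.9% of the 352 cells per lot, against 0.0326% of other cells over all lots, and a Sox17 UMI in 30.1%, 52.5%, and 38.8% against 0.141%. Aplnr was found in 59.6%, 36.2%, and 44.7% against 0.196% and Emcn in 81.4%, 63.8%, and 65.9% against 1.58%. As counted, the shares over all lots were 38.6% for Dll4, 68.8% for Sox17, 74.4% for Aplnr, and 91.8% for Emcn. For Nr2f2 the thinned share was 35.6% in the 352 cells and 35.4% in the others, and stromal and supporting cells are known to carry this gene.

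Tip cell genes, which mark the leading cells of sprouts, were higher for 7 of 9 (median log2 fold change 3.15). Plxnd1, a semaphorin receptor gene, stood at 292, 172, and 171 against 16.1, 10.0, and 15.1 CPM (log2 fold change 4.03, SE 0.25, adjusted p = 9.05e-06), and the netrin receptor gene Unc5b at 47.5, 17.9, and 26.8 against 6.73, 5.00, and 7.85 CPM (log2 fold change 2.36, SE 0.29, adjusted p = 0.000689). After thinning, Plxnd1 was found in 68.7% of the 352 cells and in 5.35% of the others, and Esm1 in 7.47% and 0.0145%, so the latter marked a minority. Mcam was higher by 3.15. Of 5 lymphatic genes only Prox1, the master factor of lymphatic fate, was higher (7.65, 4.97, and 2.57 against 1.33, 1.36, and 1.10 CPM, log2 fold change 2.12, SE 0.38, adjusted p = 0.00438, without lot 26 adjusted p = 0.129), and it was found after thinning in 2.87% of the 352 cells and 0.46% of the others. Lyve1 was found in 0.575% and 0.105%, shares at which the depth cannot show a difference, and its sums stood at 1.18, 5.47, and 0 against 0.993, 0.714, and 0.297 CPM (log2 fold change 1.49, SE 0.99, adjusted p = 0.348). Pdpn was lower in cells with 4 to 6 gate genes (-1.66, adjusted p = 7.69e-05).

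**Figure D3:**
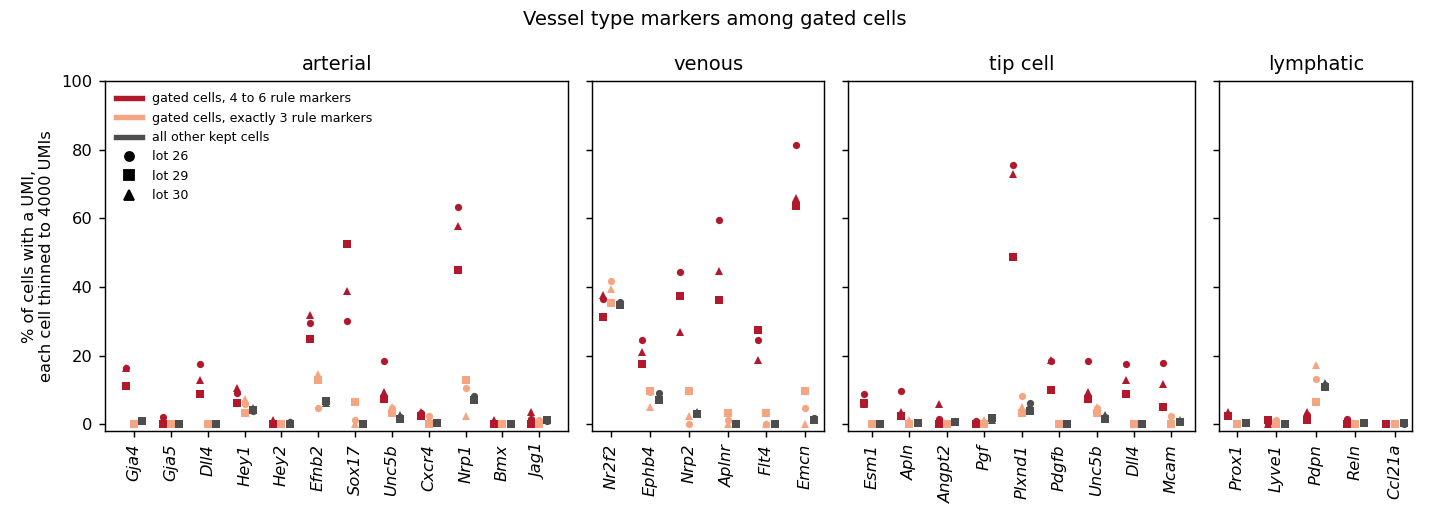
Percent of cells with a UMI of each arterial, venous, tip cell, and lymphatic gene after thinning every cell to 4000 UMIs. Shown are cells with 4 to 6 gate genes, cells with exactly 3, and all other kept cells. Emcn (73.6%) and Plxnd1 (68.7%) are frequent among the cells with 4 to 6 gate genes, and Prox1 (2.87%) and Lyve1 (0.575%) are rare there.

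Genes of hemogenic endothelium, the vessel cells that give rise to blood stem cells, were not higher. Of 7 tested, 1 was lower and 6 did not pass. Runx1, the factor of the endothelial to blood transition, stood at 34.1, 22.4, and 58.2 CPM in gated cells and at 76.3, 70.3, and 81.0 CPM in the others (log2 fold change -0.89, SE 0.23, adjusted p = 0.0268, without lot 26 adjusted p = 0.229, without lot 29 0.0976), and at 19.4, 14.3, and 25.97 CPM in cells with 4 to 6 gate genes (-1.84, adjusted p = 2.19e-06). Itga2b (CD41) stood at 6.47, 7.45, and 6.56 against 6.56, 4.41, and 5.87 CPM (log2 fold change 0.34, SE 0.23, adjusted p = 0.339). Gfi1, a further factor of that transition, had 0 UMIs in the gated cells and at most 0.0745 CPM in the others, a level at which the depth of the gated cells cannot show a difference. Of 5 genes of the brain endothelial barrier only Slc2a1, the glucose transporter gene, was higher (1.40, adjusted p = 0.00202). Mfsd2a, a lipid transporter gene of that barrier, stood at 0.589, 0, and 2.28 against 1.498, 1.38, and 1.44 CPM and, at 0.299, 0, and 0.683 CPM, was lower in cells with 4 to 6 gate genes (adjusted p = 0.0474). There it was found in 2 of the 352 cells, so that call rests on very few UMIs.

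Structural genes of the vessel wall followed the surface receptors. For junctions and adhesion 9 of 14 genes were higher and 5 did not pass. Tjp1 (ZO-1), a scaffold of tight junctions, stood at 227, 189.8, and 149 against 69.3, 61.6, and 60.7 CPM (log2 fold change 1.65, SE 0.16, adjusted p = 0.000123), and Icam1 at 20.6, 26.3, and 27.4 against 1.67, 1.10, and 2.17 CPM (log2 fold change 3.97, SE 0.26, adjusted p = 7.45e-06). F11r and Jam2, of the junctional adhesion molecule family, were higher by 0.56 and 1.32. Their adjusted p-values without lot 26 were 0.108 and 0.382, and Jam2 had 0.0898 without lot 29 and a log2 fold change of 0.73 without lot 26. Gja1, the widespread connexin 43, did not pass (0.35, adjusted p = 0.0518, with the lot as a block 0.0133), and was higher in cells with 4 to 6 gate genes (0.52, 0.00388). Vcam1, Podxl, Ocln, and Jam3 did not pass.

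For hemostasis and vessel tone 7 of 10 genes were higher. Procr, the endothelial protein C receptor gene, stood at 56.9, 102, and 93.3 against 4.69, 4.45, and 4.33 CPM (log2 fold change 4.30, SE 0.23, adjusted p = 3.31e-06), and Nos3, which makes nitric oxide, at 28.3, 25.3, and 24.0 against 2.81, 2.78, and 3.31 CPM (log2 fold change 3.21, SE 0.17, adjusted p = 2.07e-06). Vwf, the clotting factor stored in endothelial granules, stood at 5.49, 2.48, and 5.42 against 0.232, 0.211, and 0.232 CPM (log2 fold change 4.43, SE 0.38, adjusted p = 4.3e-05). F2r, Thbd, Tfpi, and Ece1 were higher by 1.92, 1.88, 1.30, and 1.09, the last with an adjusted p of 0.0507 without lot 29. Plat did not pass (-0.56, 0.195), but was lower with the lot as a block (-0.61, 0.0289) and in cells with 4 to 6 gate genes (-1.06, 0.00113).

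Caveolae, fenestrae, and lipid handling had 10 of 11 genes higher. Fabp4, a fatty acid carrier of capillary endothelium, stood at 166, 67.6, and 33.7 CPM against 0.546, 0.176, and 0.138 (log2 fold change 8.38, SE 0.95, adjusted p = 0.00499). Gpihbp1, which carries lipoprotein lipase across capillaries, stood at 101, 29.8, and 35.9 against 0.422, 0.0468, and 0.0943 CPM (log2 fold change 8.28, SE 0.89, adjusted p = 0.00325). Both were most abundant in lot 26, and the adjusted p was 0.0504 for Fabp4 without lot 29 and 0.0522 for Gpihbp1 without lot 30. Cav1 and Cav2, the caveolins, were higher by 1.60 and 4.45, and Fabp5 and the scavenger receptor gene Cd36 by 1.23 and 2.15. Lpl, the lipase itself, did not pass (-0.27, adjusted p = 0.468), and was lower in cells with 4 to 6 gate genes (-1.02, 0.00052).

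Basement membrane genes were higher for 10 of 13. The type IV collagen genes stood at 872, 523, and 414 against 149, 128, and 127 CPM for Col4a1 (log2 fold change 2.25, SE 0.25, adjusted p = 0.000304) and 479, 252, and 213 against 81.2, 65.3, and 67.7 CPM for Col4a2 (2.23). Col15a1 (4.86), the laminin gene Lama4 (3.24), and Hspg2, which encodes perlecan (2.40), had larger differences than Lamc1 (1.03) and the nidogen genes Nid1 (1.04) and Nid2 (1.22). Without lot 26, 29, or 30, Nid2 had an adjusted p of 0.108, 0.0582, and 0.165, Nid1 had 0.0623 without lot 29, and Sparc had 0.0749 without lot 26. Lamb1 was higher with the lot as a block (adjusted p = 0.000109) and in cells with 4 to 6 gate genes (0.97, 0.0022), but not otherwise (0.0557). Lama5, at 11.8, 4.97, and 12.3 against 7.87, 6.86, and 6.83 CPM, was higher only without lot 29 (0.0499) and under 2 other settings, DESeq2 and other cells without any gate gene.

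**Figure D4:**
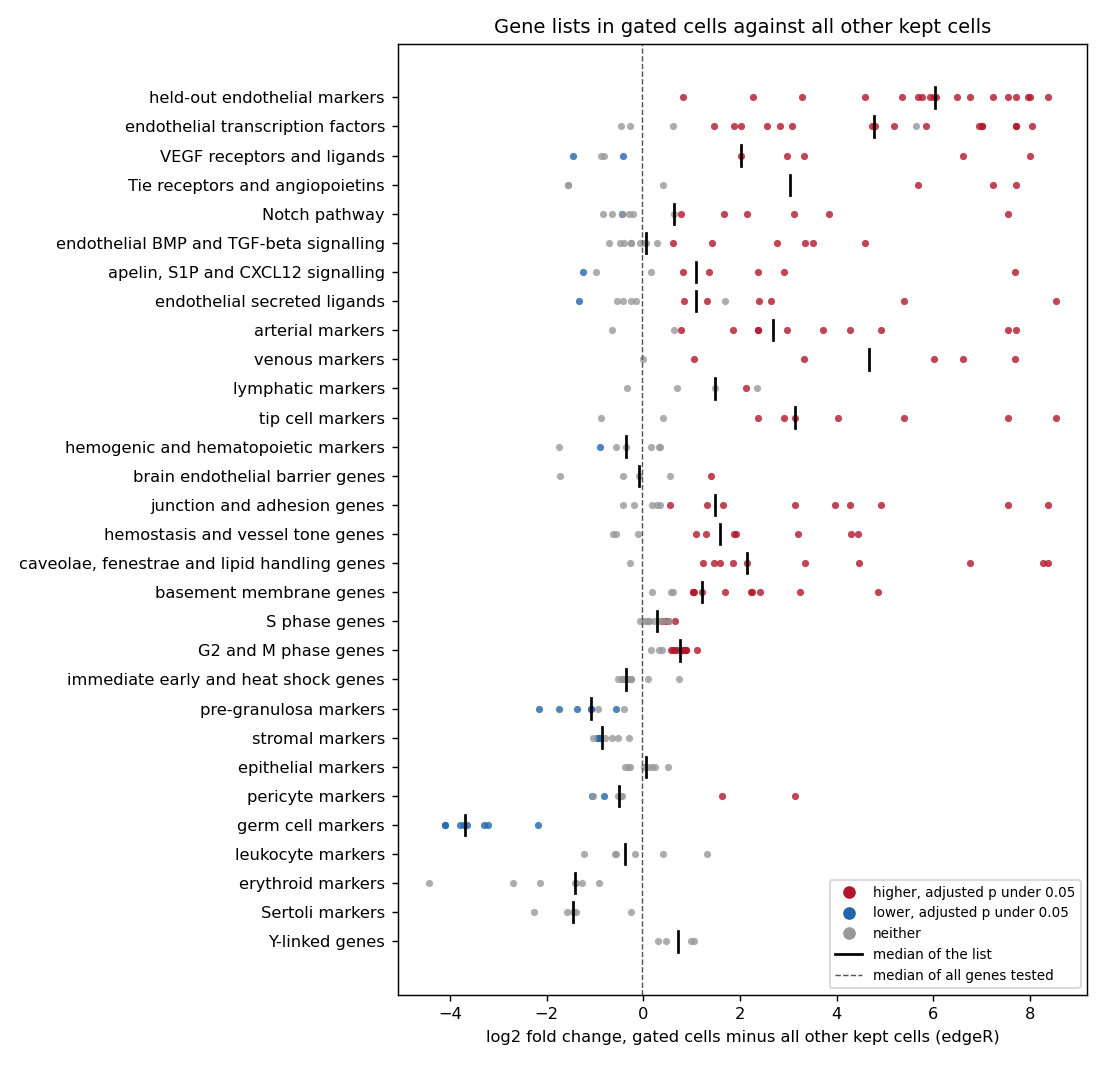
Log2 fold change of gated against other cells for each tested gene of the lists described (red higher, blue lower, and grey neither at an adjusted p under 0.05), with a black tick at the list median and a dashed line at the median of all genes tested (-0.03). The held-out markers have the highest median (6.04) and the germ cell markers the lowest (-3.69).

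Outside the lists, the 10 genes with the largest differences among those with at least 50 CPM in every lot were Ctla2a, Gimap4, Gimap6, S100a16, Pcdh17, Gng11, Cmtm8, Piezo2, Crip2, and Tagln2. Gimap4 and Gimap6 encode GTPases of immunity-associated proteins. Gimap4 stood at 117, 90.4, and 55.3 CPM in gated and 0.406, 0.222, and 0.239 CPM in other cells (log2 fold change 8.32, SE 0.37, adjusted p = 4.34e-06), and Gimap6 at 151, 183, and 96.4 against 0.82, 0.761, and 0.696 CPM (7.66, SE 0.30, 8.24e-07). Ctla2a, which belongs to a family of near-identical genes and is uncertain for that reason, stood at 161, 336, and 139 against 0.919, 0.515, and 0.66 CPM (8.34). The G protein subunit gene Gng11 stood at 573, 569, and 268 against 30.2, 31.1, and 27.9 CPM (4.08, SE 0.32, 7.34e-05), and the protocadherin gene Pcdh17 at 176, 103, and 82.2 against 5.13, 4.03, and 5.87 CPM (4.68). The mechanosensitive channel gene Piezo2 stood at 101, 61.6, and 60.5 against 6.34, 6.08, and 6.09 CPM (3.69). S100a16, Cmtm8, Crip2, and Tagln2 differed by 5.02, 3.82, 3.56, and 3.52. The ranking asked for sums without overlap, so their lack of overlap is no finding. Among the lowest were Dppa3 (-3.62), Rhox5 (-3.27), Kctd14 (-1.47), and Akr1cl (-1.43). Dppa3 is a germ cell gene, and with Dazl-gated and leukocyte-gated cells taken out of the others it differed by 0.45 (adjusted p = 0.458) and Rhox5 by -0.09 (0.872).

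Gated cells carried more RNA of the G2 and M phases. Of 14 genes of those phases 11 were higher, with a median log2 fold change of 0.76. Cdk1, the kinase of mitotic entry, stood at 165, 217, and 159 against 87.2, 95.8, and 84.4 CPM (log2 fold change 1.10, SE 0.17, adjusted p = 0.00174), and Mki67 at 190.3, 130.2, and 176 against 118, 94.3, and 91.0 CPM (log2 fold change 0.80, SE 0.14, adjusted p = 0.00363). Plk1 and Aurkb, kinases of mitosis, were higher by 0.89 and 0.86. The count was 13 with the lot as a block, 4 without lot 26, 11 without lot 29, and 10 without lot 30. Without lot 26 the adjusted p was 0.0962 for Birc5, 0.0632 for Ccna2, 0.054 for Ccnb1, 0.0854 for Cenpe, 0.14 for Top2a, 0.0706 for Tpx2, and 0.0621 for Ube2c, and Top2a had 0.122 without lot 30. In cells with 4 to 6 gate genes 11 were higher, and in those with exactly 3, of which 5.56% had 5 or more held-out markers, 6 were. After thinning to 4000 UMIs, 56.6%, 63.1%, and 54.2% of gated cells had at least 2 UMIs of the list, compared with 34.6%, 35.4%, and 31.9% of the others (57.9% ± 4.58 against 34.0% ± 1.82, SD, n = 3 lots). The shares did not overlap, and the exact two-sided permutation test gave p = 0.1, the smallest p that 3 against 3 allows. As counted the means were 81.4% and 50.7%. In cells with 4 to 6 gate genes the thinned difference was 22.0 percentage points, in those with exactly 3 it was 27.6, and in all gated cells 24.0. The higher share was thus not particular to the cells whose endothelial label was borne out. For these shares the thinning came after gating, and the gate, which asks for UMIs of at least 3 genes, took deeper cells. The part of that choice in the difference was not tested. The thinned share left out 6 gated and 829 other cells below 4000 UMIs.

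S phase genes differed less. Of 14 genes 4 were higher (median 0.28), namely Cdc6 (0.65, adjusted p = 0.014), Uhrf1 (0.51, 0.00763), Rrm1 (0.45, 0.0254), and Cdt1 (0.38, 0.038). The count was 7 with the lot as a block, 0 without lot 26, 1 without lot 29, 2 without lot 30, and 2 in cells with 4 to 6 gate genes. The replication licensing genes Mcm2 to Mcm7 did not pass, with Mcm2 at 37.3, 40.2, and 40.2 against 39.5, 38.0, and 38.3 CPM.

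Immediate early and heat shock genes, which respond to handling of cells, showed 0 of 12 past the threshold in edgeR's quasi-likelihood test, 0 at an unadjusted p under 0.05, and 0 in DESeq2. Fos stood at 440.1, 619, and 1607 CPM in gated and 742, 1180.3, and 2056 CPM in other cells (log2 fold change -0.52, SE 0.59, adjusted p = 0.612). Each lot's gated sum was below its own other sum, and the lots differed more than the sides. With the lot as a block 10 of the 12 were lower, with log2 fold changes from -0.26 (Junb) to -0.59 (Fos), and without lot 30 Hspa1a was lower (-0.83, adjusted p = 0.0129).

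Markers of the neighbouring cell types were lower or did not pass, but were not absent. Of 8 pre-granulosa markers 6 were lower (median -1.08). The signal gene Wnt4 of ovarian supporting cells stood at 132, 93.9, and 158 CPM in gated and 333, 323, and 391 CPM in other cells (log2 fold change -1.37, SE 0.16, adjusted p = 0.000372), and Fst, the activin antagonist, at 96.1, 77.0, and 131 against 339, 348, and 384 CPM (log2 fold change -1.74, SE 0.16, adjusted p = 8.73e-05). Foxl2, Irx3, and Kitl were lower too, and lost the call without lot 26 (adjusted p = 0.13, 0.0541, and 0.133), Foxl2 also without lot 29 or 30 (0.0561 and 0.105) and Kitl without lot 30 (0.0965). Of 8 stromal markers Pdgfra (-0.91), Tcf21 (-0.92), and Col1a2 (-0.95) were lower. Tcf21 and Col1a2 had adjusted p-values of 0.086 and 0.171 without lot 26, Col1a2 had 0.117 with the lot as a block, and Lum was lower in that fit (0.00472). The summed level of the stromal list ranged from 299 to 772 CPM over the lots in gated cells and from 945 to 1080.3 CPM in the others, and that of the pre-granulosa list from 705 to 1309.6 against 2112 to 2510.2 CPM.

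Cells with exactly 3 gate genes and cells with 4 to 6 differed in these lists. The shares of cells with at least 3 markers of a list depend on depth, and the cells with exactly 3 gate genes were the deepest, so each cell was thinned to 4000 UMIs. At least 3 stromal markers were then found in 38.3% of cells with exactly 3 gate genes, 7.76% of those with 4 to 6, and 30.1% of the others (76.8%, 19.9%, and 47.6% as counted). The mean summed stromal level over the lots was 954 ± 322, 335 ± 166, and 999 ± 71.8 CPM (SD, n = 3 lots), so in level the cells with exactly 3 overlapped the others. For the epithelial list the thinned shares were 48.0%, 3.45%, and 21.0% (75.8%, 13.9%, and 42.7% as counted), with summed levels of 1159 ± 226, 220 ± 93.3, and 712 ± 68.1 CPM. For the pre-granulosa list the thinned shares were 55.6%, 21.6%, and 59.1% (84.8%, 52.6%, and 73.4% as counted), with summed levels of 1671 ± 373, 676 ± 158, and 2337 ± 204 CPM. The cells with 4 to 6 gate genes thus had the lowest mean level of all 3 lists, and the cells with exactly 3 exceeded the others in the mean level of the epithelial list alone. Of 8 epithelial markers 0 passed edgeR's quasi-likelihood test in all gated cells (0 at an unadjusted p under 0.05 and 0 in DESeq2), but in cells with 4 to 6 gate genes 6 of 7 were lower (median -1.40), and in cells with exactly 3, Upk3b (1.53, adjusted p = 0.000366), Krt7 (1.13, 0.017), and Krt18 (0.67, 0.0449) were higher. Upk3b, a surface epithelium gene, stood at 198, 135, and 216 CPM in the cells with exactly 3 gate genes, 25.4, 5.43, and 37.6 CPM in those with 4 to 6, and 60.7, 67.6, and 69.6 CPM in the others. The part of these cells in the gene counts of the 550 was not tested apart from giving the 352 beside them. With 4 to 6 gate genes 7 pre-granulosa and 6 stromal markers were lower.

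Among pericyte markers, Abcc9 (1.64, adjusted p = 0.012) and Mcam (3.15) were higher, and Pdgfrb (-1.07, 0.0488) and the smooth muscle actin gene Acta2 (-0.82, 0.0305) were lower, with 4 of 8 passing neither way. Without lot 26 the adjusted p was 0.187 for Abcc9, 0.257 for Pdgfrb, and 0.199 for Acta2, without lot 29 0.074 for Abcc9, and without lot 30 0.0623 for Pdgfrb. The summed pericyte level was 87.8 ± 34.1 CPM in cells with exactly 3 gate genes, 71.2 ± 29.8 CPM in those with 4 to 6, and 105 ± 12.9 CPM in the others (SD, n = 3 lots), and after thinning at least 3 markers of the list were found in 0.51%, 0.287%, and 0.884% of cells (10.6%, 4.55%, and 4.66% as counted). All 8 germ cell markers were lower (median -3.69), which partly follows from the limit on Dazl, since germ cells remained among the others. Ddx4 stood at 1.57, 0.497, and 1.71 against 37.4, 20.3, and 18.2 CPM (-4.10), and with Dazl-gated and leukocyte-gated cells taken out of the others it differed by -0.23 (adjusted p = 0.827). Pou5f1 lost its call without lot 26 (adjusted p = 0.117) and Tex101 without lot 29 (0.0533) or 30 (0.0622).

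No blood cell or Sertoli marker passed the test between the sides, although several did under other settings. Of 6 leukocyte markers 0 passed edgeR's quasi-likelihood test (1 at an unadjusted p under 0.05, 0 in DESeq2), and their summed level ranged from 7.42 to 29.8 CPM in gated and 10.4 to 31.0 CPM in other cells. With the lot as a block Laptm5 was higher (1.22, adjusted p = 0.00758) and Tyrobp lower (-1.54, 0.0314), and Laptm5 was higher in cells with 4 to 6 gate genes (2.02, 0.0355). Of 7 erythroid markers 0 passed (2 at an unadjusted p under 0.05, 2 in DESeq2), but the summed level of the list of 8 ranged from 80.4 to 527 CPM in gated and from 1273 to 3524 CPM in other cells, with no overlap. Lot 26 was the highest of the gated sums, mostly through 1 cell, and without lot 26 Hba-a1, Hbb-bs, and Hbb-bt were lower in gated cells, as was Hbb-y with the lot as a block, with values given beside the lots below. Of 5 Sertoli markers, genes of the male supporting cell, 0 passed (1 at an unadjusted p under 0.05, 1 in DESeq2), and with the lot as a block 4 were lower. After thinning, at least 3 Sertoli markers were found in 0.287% of cells with 4 to 6 gate genes and in 1.27% of the others (0.852% and 1.51% as counted).

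Leukocytes share a blood lineage history with endothelium, so gated cells were also set against 144 cells (73, 22, and 49 per lot) with at least 3 of Ptprc, Tyrobp, Fcer1g, Laptm5, Coro1a, and Cd53. Of 10310 genes tested 871 (8.45%) were higher and 1255 (12.2%) lower in gated cells. With the lot as a block 1328 were higher. All 18 held-out markers and all 6 venous genes were higher, Nr2f2 included. Of 19 transcription factors 9 were higher, and Gata2, Lyl1, and Mef2c were lower, so 2 genes that stood out from the ovary as a whole (Lyl1 and Mef2c) were more abundant still in the leukocyte-gated cells. Lyl1 differed by -2.27 (adjusted p = 0.000336) and Mef2c by -0.94 (0.00607). Runx1 was lower, with a log2 fold change of -1.86 (0.000199), 1 of 4 hemogenic genes lower of 5 tested. The lysozyme gene Lyz2 of macrophages stood at 1.18, 2.98, and 0.571 CPM in gated and 829, 345, and 1125 CPM in leukocyte-gated cells (-9.18, SE 0.61, adjusted p = 6.65e-06). The macrophage genes F13a1, Rgs1, Ms4a7, and Ms4a6c had 0 to 0.571 CPM in gated cells, and 53.6 CPM or more in every leukocyte-gated sum. Among the highest outside the lists were S100a16 (5.73), Pcdh17 (5.27), Crip2 (4.80), Gimap4 (4.79), and Gng11 (4.70), followed by Limch1, Lpar4, Cmtm8, Sparcl1, and Piezo2. Gimap4 and Sparcl1 had adjusted p-values of 0.0547 and 0.0538 without lot 29, and Gimap4 a log2 fold change of 10.84 without lot 30, the only lot whose leukocyte-gated cells had UMIs of it. For the S phase and the G2 and M phase lists 0 of 14 genes passed edgeR's quasi-likelihood test in either direction (1 higher and 4 lower, and 1 higher and 2 lower, at an unadjusted p under 0.05, and 0 in DESeq2 for both). The smallest leukocyte-gated sum held 298370 UMIs.

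Against the 1418 cells with 5 or more Dazl UMIs (709, 328, and 381 per lot), 4037 of 12452 genes (32.4%) were higher and 4155 (33.4%) lower in gated cells. Here too all 18 held-out markers and all 6 venous genes were higher, with 17 of 20 transcription factors and all 11 caveolae, fenestrae, and lipid genes. Markers of other somatic cell types were higher as well. In DESeq2 these were 7 of 7 pre-granulosa, 6 of 8 stromal, 6 of 6 epithelial, and 7 of 7 pericyte markers. Being higher than in germ cells was thus not particular to endothelial genes. Outside the lists, Ctla2a (8.48), Gimap6 (8.05), Gimap4 (7.69), Pcdh17 (6.36), and Gng11 (6.30) led the genes higher, followed by Tagln2, Arhgap31, Anxa3, Pea15a, and Lpar4. The meiotic and piRNA genes Hormad1 (0.392, 0, and 0.856 against 139, 153, and 133 CPM, log2 fold change -8.25) and Mov10l1 (0.785, 0, and 0.285 against 129.5, 118, and 120.0 CPM, -8.05) were lower, and Sox2, Tex12, and Cdkn2a had at most 3 UMIs in the gated cells. Of the S phase genes 2 were higher and 7 lower, and of the G2 and M phase genes 3 were higher and 5 lower. 

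The gated cells of the 3 lots differed in few genes by a wide margin. Genes were ranked by the gap of 1 lot from both others on log2(CPM + 10), with no test. In lot 29, Etv2, the ETS factor that starts the endothelial and blood programme in the early embryo (chromosome 7, 30633616 to 30635852), stood at 207 CPM, against 0.785 in lot 26 and 12.6 in lot 30, and at 1.13, 2.04, and 1.30 CPM in the other cells (log2 fold change 5.65, SE 1.88, adjusted p = 0.124; DESeq2 adjusted p = 0.00387). An Etv2 UMI was found in 29 of the 112 gated cells of lot 29 (25.9%), in 4 of 268 in lot 26 and 8 of 170 in lot 30, and in 1.14% to 1.30% of other cells. Gated cells with at least 5 Etv2 UMIs numbered 0, 14, and 3 in lots 26, 29, and 30, compared with 0, 2, and 3 among the other cells. The 14 cells of lot 29 had 5 to 86 Etv2 UMIs each and a median of 4 gate genes and 7.5 held-out markers (4 to 11). All 14 had Egfl7, 13 had Kdr, 13 Lmo2, 13 Hhex, 12 Tal1, 11 Fli1, and 10 Sox17, and 0 had Runx1. Of the junction genes, Cldn5 was found in 13 of the 14, Esam in 8, Cdh5 in 5, and Pecam1 in 0, and Scrublet marked 0 as doublets. With 14 cells, a count of 0 allows a share of up to 21.4% of such cells with a UMI, which says nothing of cells that express the gene below detection. Kdr, Egfl7, and the junction genes are gate genes and the rest are not, and 5 of the 14 had exactly 3 gate genes. The 3 cells of lot 30 had Kdr, Egfl7, Esam, Cldn5, Tal1, Lmo2, Fli1, and Hhex, 2 had Cdh5, and 0 had Pecam1. Cells with at least 5 Etv2 UMIs were thus found mostly in 1 lot. How often those of the gate carried each gate gene depends in part on the gate itself and is a description. The lack of Pecam1 was also seen in cells that had passed columns with an antibody to CD31, its protein.

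Clec1b, a platelet-type lectin receptor gene, was the next gene of lot 29, at 35.1, 198, and 43.9 CPM in gated and 0.215, 0.234, and 0.131 CPM in other cells (log2 fold change 8.98, SE 1.14, adjusted p = 0.00824). It was found in 56.3% of gated cells of lot 29, compared with 20.5% in lot 26 and 25.3% in lot 30, and in 0.152% to 0.265% of other cells. The collagen gene Col1a1 was lowest in lot 29, at 93.2, 16.9, and 74.5 CPM. In lot 30 the stress genes Atf3, Hspa1a, and Hspa1b stood apart, and did so in the other cells as well, with Atf3 at 76.7, 103, and 843 CPM in gated and 67.2, 144, and 771 CPM in other cells, and Hspa1a at 39.4, 27.8, and 342 and 68.3, 65.2, and 399.7 CPM. Hspa1a and Hspa1b are near-identical copies. In lot 26 the globin genes were highest among gated cells, and 1 cell held 89.4% of the UMIs of Hbb-bs, 94.0% of Hbb-bt, and 85.0% of Hba-a1. Without lot 26, Hbb-bs, Hbb-bt, and Hba-a1 were lower in gated cells (-4.53, -3.95, and -4.25, adjusted p = 6.96e-05, 6.29e-05, and 0.0016), and without lot 29 or with the lot as a block so was the embryonic globin gene Hbb-y (adjusted p = 0.00353 and 8.41e-08).

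**Figure D5:**
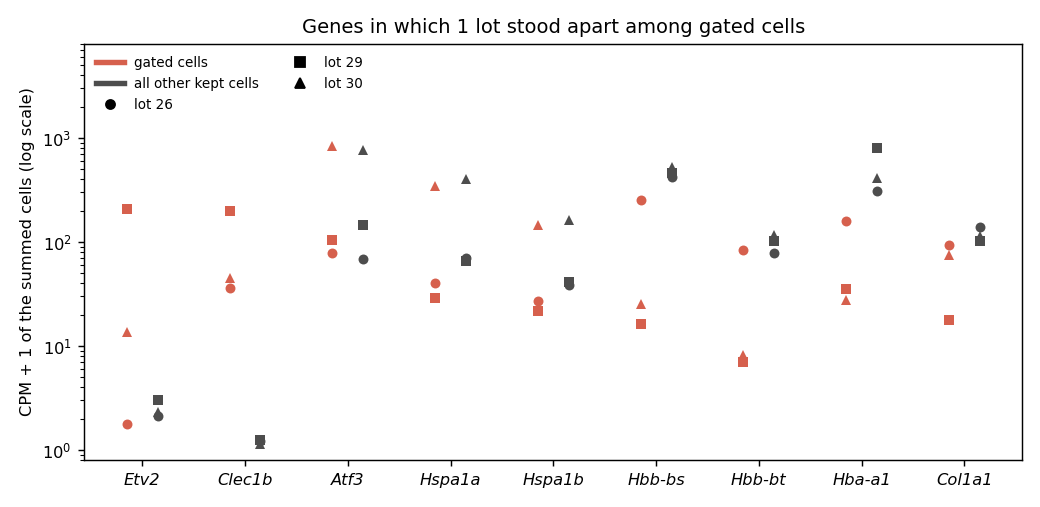
Level in CPM plus 1 on a log axis of the 9 genes in which 1 lot of gated cells lay farthest from both others, for gated and other cells, with a symbol for each lot. Etv2 and Clec1b of lot 29 are high in gated cells alone, whereas Atf3, Hspa1a, and Hspa1b of lot 30 are high on both sides.

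Lot 29 also differed in Y-linked RNA, which male embryos carry. The 4 genes Ddx3y, Eif2s3y, Kdm5d, and Uty did not pass the test between the sides (0 of 4 in edgeR's quasi-likelihood test, 0 at an unadjusted p under 0.05, and 0 in DESeq2). Ddx3y stood at 2.35, 19.9, and 0.571 CPM in gated and 1.86, 7.17, and 0.522 CPM in other cells, highest in lot 29 on both sides, and with the lot as a block it was higher in gated cells (1.04, adjusted p = 0.028). A UMI of any of the 4 was found in 8.70%, 32.1%, and 2.30% of cells with 4 to 6 gate genes and in 3.57%, 10.4%, and 0.864% of the other cells, at unequal depths. The part of male cells in the values of lot 29 was not tested.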

How the data were processed

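Single cells of 3 thawed lots were profiled with 10X 3′ v3 chemistry. The authors whitelisted barcodes with UMI-tools, aligned reads with STAR 2.7 to GRCm38, kept unique alignments, assigned them with featureCounts 2.0.1, and deposited UMI counts per gene and barcode, 1 table per lot. The strand setting and the annotation release are not given in the sources used here, so genes that overlap are uncertain. All groups come from the labels, 1 sample per lot. Nothing in the labels splits the lots by batch.

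Barcodes with 200 to 9000 genes and at most 10% mitochondrial UMIs were kept, including the Sertoli-like cells that the study left out. Doublets were marked with Scrublet (scanpy 1.11.5) and kept. UMI counts were summed per lot and side and tested with edgeR 4.0.16 in R 4.3.3 (filterByExpr, TMM, quasi-likelihood, Benjamini-Hochberg over all genes, threshold 0.05). The script recovered changes set in simulated counts. Those counts held no effect shared within a lot, so they do not check how the test handles paired sums. P-values measure the spread between 3 pooled lots. Totals per lot and the smallest sum tested are given in the results, and the number of gated cells limits the precision. Same-lot sums share a pool of embryos, and their deviations from the side means were correlated (0.632, 0.641, and 0.649 against the other cells, 0.409, 0.469, and 0.36 against leukocyte-gated, and 0.599, 0.561, and 0.56 against Dazl-gated cells), so the lot numbers pair the sums and a fit with the lot as a block is given where it moved a call.

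Named genes are those of the gene lists, plus, for each comparison, the 10 highest and 5 lowest by log2 fold change among genes past the threshold with at least 50 CPM in every lot on the higher side and no overlap, plus 3 genes per lot by gap between lots. Some genes that these rules pick are not reported here. The members and lists were chosen with earlier results of these data known. Alternatives were DESeq2 1.42.0 and its size factors, no filter, the block, leaving out each lot, other marker counts, doublets removed, other comparison cells, and thinning to 4000 UMIs. Comparing cells with exactly 3 gate genes, and some counts for cells with 4 to 6, were added after seeing the data. Positions come from GENCODE vM21, promoters from RefSeq. Python 3.11.15 was used with numpy 2.4.6, scipy 1.17.1, and pandas 2.3.3.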

Additional observations from a re-analysis of the deposited data

How the results depend on the processing

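The share of gated cells was 1.89% of kept cells and was 8.505% when 2 gate genes were enough, 1.15% when cells were thinned to 4000 UMIs before gating, and 1.22% when 5 held-out markers were required as well. Against all other cells, 1486 genes were higher and 1134 lower; with the replicate (lot) as a block the counts were 2137 and 1933, with 4 to 6 gate genes 2355 and 2699, and after thinning to 4000 UMIs before gating 1929 were lower. Leaving out 1 lot gave 602 to 1188 higher and 225 to 682 lower, the smallest counts without lot 26, which held more gated cells than either other lot. Against leukocyte-gated cells, 1328 were higher with the block, and leaving out 1 lot gave 421 to 855 higher and 775 to 1279 lower, the smallest again without lot 26. The cause was not tested, and leaving out a lot leaves both fewer cells and fewer lots on each side.

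Of 284 named genes in the first comparison, 247 kept their side of the threshold with the replicate block, 36 passed it, and 1 no longer did, and without lot 26 it was 239, 4, and 40 of 283. The named genes outside the lists kept their direction and call under every setting run against Dazl-gated cells. Against leukocyte-gated cells Gimap4 and Sparcl1 lost theirs without lot 29. Signs turned for 9 genes. With leukocyte-gated and Dazl-gated cells taken out of the others, log2 fold changes were 0.45 for Dppa3, 0.20 for Dppa5a, 3.05 for Fcer1g, 0.033 for Mael, 0.47 for Stk31, and 0.42 for Tex101, which follows from the removal of the cells that carry them. With 4 to 6 gate genes they were -1.18 for Krt19, -1.40 for Krt7, and -1.42 for Upk3b, and after thinning -2.57, -2.47, and -2.41. The 352 cells with 4 to 6 gate genes and 144 leukocyte-gated cells limit what rare genes can show.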
